A study of Drosophila melanogaster with 2 samples.

Results

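The 9 pair-rule genes eve, ftz, hry, run, odd, prd, opa, slp1 and slp2 were examined for binding of CG8281, out of 13968 protein-coding genes on the chromosome arms. They were taken by symbol, each as its gene body with 10 kb of sequence on either side; no measured value enters that rule, but the family was picked with earlier results of these data known. Binding was measured by ChIP-seq, chromatin immunoprecipitation in which an antibody recovers the DNA that a protein holds and that DNA is sequenced. Whole Drosophila melanogaster embryos of 0 to 20 h were used, from a transgenic line that stably carries CG8281 fused to a C-terminal GFP, which an anti-GFP antibody recovered. Both libraries, biological replicates 1 and 2, carry the fusion and form 1 group. No second genotype, stage or treatment was analysed, so no test between groups was possible and all results are descriptions. Each library mixes all tissues and all ages of the collection, so binding in few cells and weak binding in many cannot be told apart.

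Pair-rule genes encode transcription factors that divide the early Drosophila embryo into repeated segments. They read the graded gap proteins through separate stripe enhancers, are expressed in stripes around the blastoderm embryo, and hand the pattern on to segment polarity genes such as en and wg. Classically eve, hry and run are called primary, because gap proteins set their stripes directly, and the others respond more to the primary factors. Most are expressed again later, in the nervous system or other organs, so the collection covers early and late uses of these genes.

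The sequences under the 6 strongest summits of the family, and under the strongest summit of prd, show what CG8281 chromatin contained at these genes. They are on dm6, plus strand, 5′ to 3′, from 100 bp before to 100 bp after the summit, read from the RefSeq Release 6 genome. The hry promoter stretch stops before the start of the gene. Capitals mark matches, on either strand, to the motifs and words whose letters are spelled out after the sequences.
between slp1 and slp2, chr2L:3832435-3832635: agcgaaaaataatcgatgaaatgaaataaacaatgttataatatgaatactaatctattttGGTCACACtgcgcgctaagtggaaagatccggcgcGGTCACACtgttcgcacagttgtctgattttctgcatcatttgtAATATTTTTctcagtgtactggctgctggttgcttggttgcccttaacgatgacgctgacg
downstream of hry, distal, chr3L:8685673-8685873: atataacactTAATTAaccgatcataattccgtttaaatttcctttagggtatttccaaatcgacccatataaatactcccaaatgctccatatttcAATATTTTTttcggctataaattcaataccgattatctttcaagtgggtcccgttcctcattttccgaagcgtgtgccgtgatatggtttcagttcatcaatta
upstream of opa, chr3R:4846798-4846998: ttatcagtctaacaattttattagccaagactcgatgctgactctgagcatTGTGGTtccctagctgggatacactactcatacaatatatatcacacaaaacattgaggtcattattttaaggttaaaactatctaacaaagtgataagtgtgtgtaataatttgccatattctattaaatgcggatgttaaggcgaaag
hry promoter, chr3L:8675636-8675758: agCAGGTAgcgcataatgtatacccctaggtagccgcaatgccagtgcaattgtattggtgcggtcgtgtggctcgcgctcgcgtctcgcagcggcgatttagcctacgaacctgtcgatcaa
downstream of hry, proximal, chr3L:8683103-8683303: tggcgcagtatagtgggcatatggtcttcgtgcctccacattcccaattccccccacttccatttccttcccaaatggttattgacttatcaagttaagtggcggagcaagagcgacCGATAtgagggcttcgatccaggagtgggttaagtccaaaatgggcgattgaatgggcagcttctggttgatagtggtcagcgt
downstream of slp1, chr2L:3827753-3827953: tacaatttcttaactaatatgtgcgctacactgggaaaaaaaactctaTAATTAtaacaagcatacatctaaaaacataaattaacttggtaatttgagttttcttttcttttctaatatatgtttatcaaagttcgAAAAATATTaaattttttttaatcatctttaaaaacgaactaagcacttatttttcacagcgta
downstream of prd, chr2L:12081081-12081281: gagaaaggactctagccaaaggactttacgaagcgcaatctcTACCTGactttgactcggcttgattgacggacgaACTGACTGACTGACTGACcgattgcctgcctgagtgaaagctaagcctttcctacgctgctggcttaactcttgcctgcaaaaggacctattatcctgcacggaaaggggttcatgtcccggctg

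Of the motifs and words searched, those shared by the most of the 6 family summits were overlapping A and T words. Words of 8 bases were ranked by the excess of optimal summits that held them, within 100 bp and on either strand, over windows of the same length 500 bp to either side. The words at the top, AAAAATAT and AAAATATT, overlap each other and were held by 10.8% and 10.4% of all 3921 optimal summits, beside 5.76% and 5.39% of the flanking windows. Both were found at 3 of the 6 family summits: between slp1 and slp2, downstream of slp1, and at the distal summit downstream of hry, where they span the summit itself, from 3 bp before to 5 bp after it. The other A and T words among the 10 at the top, ATATTTTA, ATTTAAAA, AATAAATA and AAATATAT, were found at 0 of the 6. Among the 59 pooled summits of the family AAAAATAT and AAAATATT were each found at 4 (6.78%). They were found at 7.67% and 7.11% of all pooled summits. The ranking was made on these data, so it is a description. GC content of the 6 windows ran from 23.4% to 56.2%, with a median of 37.6%, beside 36.8% for all optimal summits and 42.3% for the flanking windows. The excess of A and T words over the flanking windows thus goes with a lower GC content, whose part in it was not tested.

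The summit between slp1 and slp2 held GGTCACAC, the core of the site of the promoter factor M1BP, at 2 places, starting 39 bp and 4 bp before the summit. That word was searched after it was seen in this sequence. It was found at 0.995% of all optimal summits and in 0.485% of flanking windows. The summit downstream of prd lay beside a tandem repeat that holds ACTGACTG in 3 overlapping copies, from 24 bp to 9 bp before the summit. The marked stretch runs on to 7 bp before the summit, as it also matches CTGACTGA and, on the other strand, AGTCAGTC and GTCAGTCA. These words were also among the 10 at the top. ACTGACTG, one of the 10 top words, was held by 5.66% of optimal summits against 0.752% of flanking windows. Among the 59 pooled summits of the family only that of prd held it, and it was found at 1.87% of all pooled summits.

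Motifs of known developmental and promoter factors were counted at the 6 family summits, a number too small to compare shares. TGTGGT, the letters of Runx factors such as run, was found at the summit upstream of opa (7.01% of all optimal summits, 8.94% of flanking windows). TAATTA, read by homeodomain factors, was found downstream of slp1 and at the distal hry summit (15.0% and 12.8%). CAGGTA, the letters of the early activator Zelda, was found at the hry promoter (3.85% and 4.32%) and, among the weaker pooled summits, at that of prd, at the ftz promoter and at 1 between slp1 and slp2. CGATA of BEAF-32 (24.5% and 21.6%) was found at 2 summits, both of hry, and GAGAG of the GAGA factor (22.9% and 25.7%) at 1, the hry promoter. At the hry promoter the matches to both lie in the part of the window that is not printed. None of the 6 held TATCGATA of DREF (1.63% and 0.599%), the E-box CACGTG (2.30% and 2.52%), GTCACG of Paired (3.39% and 3.60%) or CAAGGTC of FTZ-F1 (0.638% and 1.44%). CGCACG, searched as a Hairy-type word (3.95% and 5.16%), was also found at 0 of the 6. Whether these letters are a site of Hairy was not checked. Among all 59 pooled summits of the family CGCACG was found at 6, beside 4.91% of all pooled summits, GTCACG at 4 (3.68%), CACGTG at 2 (2.52%), and TATCGATA and CAAGGTC at 0 (0.987% and 1.05%). A match is a match of letters, not a shown site.

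4 lists of peaks were used. Peaks called in replicate 1, in replicate 2 and in both pooled numbered 30000 in each case, and the authors' optimal list, drawn from those 3, numbered 3921. Signal is the authors' value per peak, of unstated scaling, so it is compared within a list only, and rank 1 is the strongest peak of a list. The optimal peaks were the 3921 strongest of the pooled list, with a median signal of 217 and a lowest of 123. The lists give no read counts, so depth is unknown.

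The strongest CG8281 summits of the family lay at hry, between slp1 and slp2, and upstream of opa, and summits of any strength were densest at hry and sparse at eve, ftz and run. Of the 9 genes, 4 had an optimal summit in the gene body plus 10 kb, beside 53.1% of all protein-coding genes. By this count the family as a whole did not stand above the background. With flanks of 20 kb the counts were 8 of 9 and 70.8% of all genes, and with flanks of 5 kb 3 of 9 and 38.3%. The 4 genes were hry with 3 optimal summits, opa with 1, and slp1 and slp2, whose windows overlap, with the same 2. The 6 distinct summits gave 2.86 per 100 kb of the 209.6 kb covered, beside 2.85 for the chromosome arms, and 1.61 without the window of hry. In the pooled, replicate 1 and replicate 2 lists the density was 28.2, 26.2 and 31.0, beside 21.8 for the arms in each. Without the window of hry it was 21.0, 19.3 and 22.0. In the longer lists, 8 of 9 genes had a pooled summit (90.2% of all genes), 9 of 9 a replicate 1 summit (96.7%) and 8 of 9 a replicate 2 summit (83.8%).

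**Figure D1:**
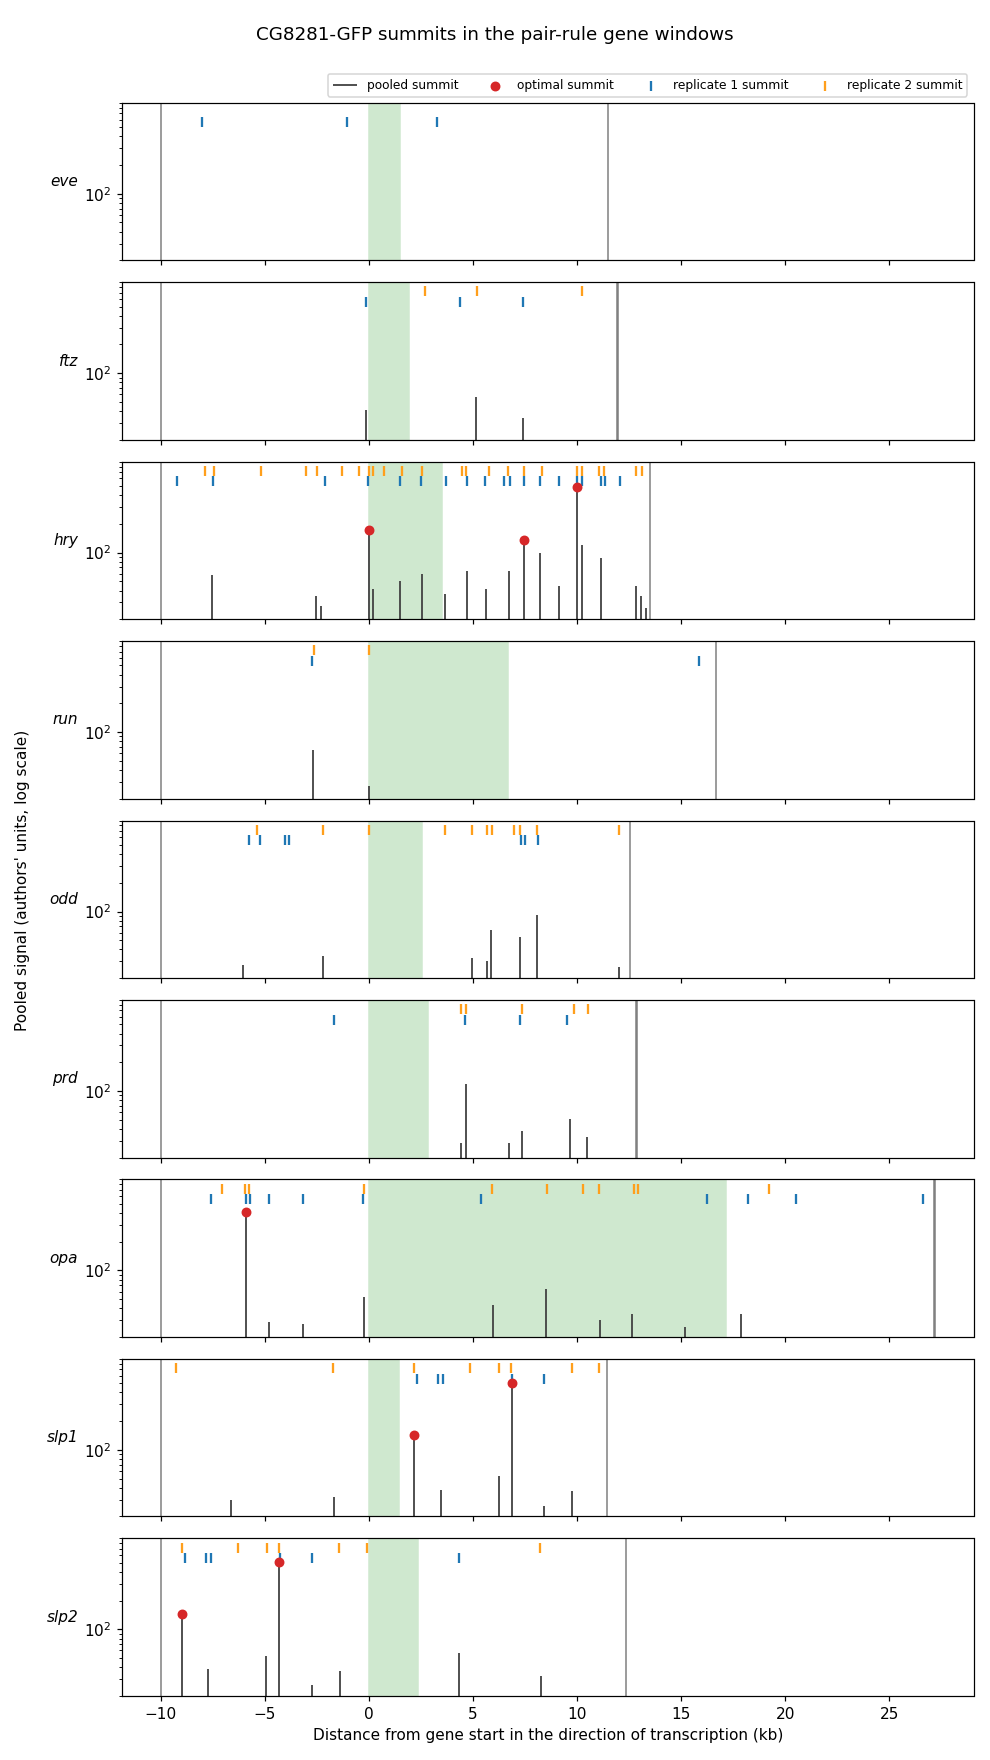
CG8281-GFP summits by distance from the start of each gene, in kb along the direction of transcription, with the gene body shaded green and the limits of the window in grey. Black lines give the pooled signal on a log scale, red points mark optimal summits, and the ticks at the top mark summits of replicate 1 (blue) and replicate 2 (orange), whose height has no meaning. The 3 optimal summits of hry lie at its start and downstream, slp1 and slp2 share 2 optimal summits between them, and eve has no pooled summit.

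Most of the summits lay outside the gene bodies, as does most of the sequence of each window. Of the 6 optimal summits 1 lay in a promoter, within 500 bp of a transcription start site (TSS), and 5 lay in flanks, with 0 in introns and 0 in exons. Of 59 pooled summits 5 lay in promoters, 6 in introns, 1 in coding sequence and 47 in flanks. Replicate 1 gave 3 in promoters, 2 in introns, 2 in coding sequence and 48 in flanks, out of 55, and replicate 2 gave 7, 8, 1 and 49 in the same order, out of 65. Most of these genes are short, so the flanks make up most of each window, and whether summits favour the flanks was not tested. The body of opa is 17167 bp in a window of 37167 bp. The other bodies run from 1425 to 6652 bp, in windows of 21425 to 26652 bp. A gene that is not of the family had the nearest TSS for 7 of the 59 pooled summits and for 0 of the 6 optimal summits.

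Among the primary genes, hry, which encodes a basic helix-loop-helix repressor that recruits Groucho, carried a long row of summits. The gene (FBgn0001168) spans 8675759 to 8679253 on 3L, and no other protein-coding gene lies in its window. Its window held 20 pooled summits, 19 of replicate 1 and 24 of replicate 2, a density of 85.1, 80.9 and 102 per 100 kb, beside 25.2, 23.7 and 25.4 for the whole arm. A pooled density at or above that of hry was found for 81 of 13968 protein-coding genes, 0.580%. Peaks whose intervals overlap form 15 merged regions in the pooled list, 16 in replicate 1 and 19 in replicate 2, so some of the summits are neighbours within 1 region.

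**Figure D2:**
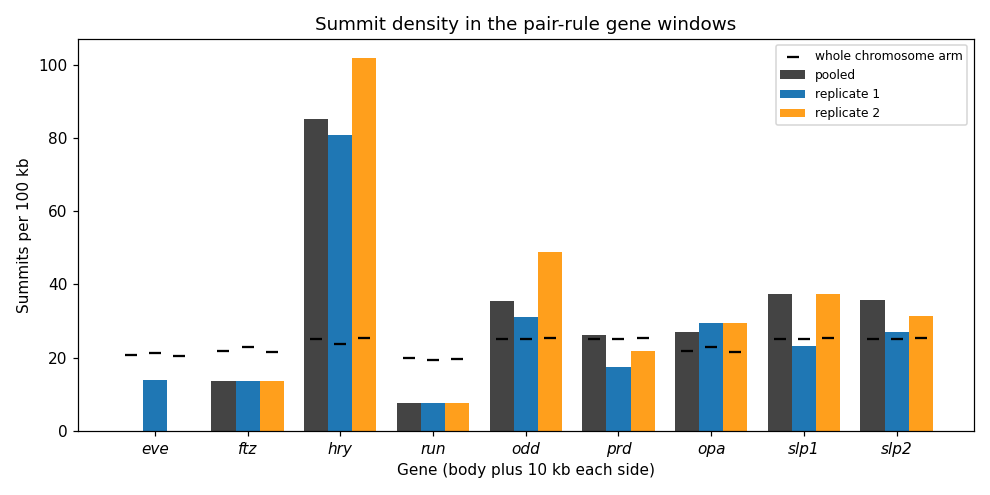
Summits per 100 kb in the window of each pair-rule gene in the pooled list and in both replicate lists, with the density of the whole chromosome arm as a black dash. The bars of hry reach 85.1, 80.9 and 102, and those of eve, ftz and run lie below their dashes in every list. Those of prd in both replicate lists and that of slp1 in replicate 1 lie below as well.

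The row at hry ran mostly downstream of the gene. Of the 20 pooled summits 13 lay past its 3′ end, 3 upstream, 2 at the promoter, 1 in an intron and 1 in coding sequence. The strongest, the distal sequence printed for hry, had its summit at 8685773, which is 6520 bp past the gene's end and 10014 bp from its start. Its signal was 492 at rank 676 in the pooled and optimal lists, 151 at rank 1268 in replicate 1 and 336 at rank 469 in replicate 2. Both replicates placed it within 6 bp of the pooled summit. A second pooled summit, of signal 120 at rank 4019, stood in the same peak interval at 8685984. It fell just under the optimal list.

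The other optimal summits of hry were weaker. The promoter summit, at 8675736 and 23 bp upstream of the gene's start, had a signal of 172 at rank 2600, with 58.4 at rank 3865 in replicate 1 and 114 at rank 2063 in replicate 2. The proximal downstream summit, at 8683203 and 3950 bp past the gene's end, had a signal of 136 at rank 3443, with 42.3 at rank 5589 in replicate 1 and 84.0 at rank 3198 in replicate 2. All 3 optimal summits of hry thus ranked higher in replicate 2 than in replicate 1. The remaining pooled summits of hry had signals from 26.5 at rank 28024 to the 120 already given. A far stronger peak stood beyond the window: 18933 bp past the end of hry, at 8698186, an optimal summit had a signal of 8726 at rank 17, 22039 bp from the nearest TSS, that of SrpRbeta.

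The primary gene eve, which encodes a homeodomain repressor and is the textbook case of stripe enhancers, had no optimal, no pooled and no replicate 2 summit in its window. The gene (FBgn0000606) spans 9979319 to 9980795 on 2R. Replicate 1 listed 3 summits there. The strongest, with a signal of 46.1 at rank 5068, lay 68 bp upstream of the nearest TSS, 1 of the neighbour CG12134, and the others, at 15.2 and 15.7, ranked 28360 and 26894. Of all protein-coding genes 1373 had no pooled summit in their window, so an empty window is not rare. An optimal summit with a signal of 1438 at rank 171 lay 19420 bp upstream of eve, 167 bp from the TSS of Pdrg1.

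The primary gene run, which encodes a Runx transcription factor, held 2 summits in each of the longer lists. It spans 20690670 to 20697321 on X (FBgn0003300). Its strongest pooled summit, 2710 bp upstream, had a signal of 64.5 at rank 8613, and both replicates had a summit there, with 36.4 at rank 6707 and 25.6 at rank 17472. At the start of the gene the pooled list held a summit of 27.1 at rank 27226 and replicate 2 one of 18.6 at rank 25763, near the bottom of both lists, while replicate 1 had none there. The density, 7.50 per 100 kb in each of the 3 lists, was the lowest of the family apart from eve, which had 0 in the pooled and replicate 2 lists and 14.0 in replicate 1.

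The homeodomain gene ftz, whose protein acts with the nuclear receptor FTZ-F1, also had few and weak summits. It spans 6864324 to 6866244 on 3R (FBgn0001077). The pooled list held 3, with signals of 41.6 at rank 15365 at the promoter, 56.5 at rank 10243, which is 3235 bp past the gene's end, and 33.8 at rank 20375, farther downstream. None of the 3 was found in both replicates within 100 bp: replicate 1 had the promoter summit, with 21.3 at rank 15254, and the last, and replicate 2 had the other. The replicates thus shared no summit in the window of ftz at that distance.

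The genes slp1 and slp2, neighbours that encode closely related forkhead repressors, had their strongest summit in the sequence between them. They span 3825675 to 3827099 (FBgn0003430) and 3836840 to 3839185 (FBgn0004567) on 2L. The summit at 3832535, the sequence printed as lying between them, is 5436 bp past the end of slp1 and 4305 bp upstream of slp2. It had a signal of 507 at rank 649, 208 at rank 834 in replicate 1 and 305 at rank 542 in replicate 2. It was the strongest summit of the family in the optimal, pooled and replicate 1 lists, while in replicate 2 the distal summit of hry was stronger. The replicates placed it 2 bp and 33 bp from the pooled summit.

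The other optimal summit of these genes rested mostly on replicate 2. It lay at 3827853, 754 bp past the end of slp1, with a signal of 144 at rank 3247. In replicate 2 it had a signal of 112 at rank 2123, 1 bp away, while the nearest summit of replicate 1 was 140 bp away with 27.1 at rank 10053. No pooled summit lay in either promoter. Replicate 2 alone had a summit 97 bp upstream of slp2, with 25.0 at rank 18017.

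At opa, which encodes a Zic-family zinc finger protein expressed in a broad band rather than in stripes, the strongest summit lay upstream. The gene spans 4852813 to 4869979 on 3R (FBgn0003002) and is the longest of the family at 17167 bp. The summit at 4846898, 5915 bp upstream, had a signal of 406 at rank 882, 149 at rank 1299 in replicate 1 and 256 at rank 682 in replicate 2. Each replicate listed a further summit about 200 bp closer to the gene, at 4847091 with 54.3 and rank 4183 in replicate 1 and at 4847055 with 129 and rank 1743 in replicate 2, where the pooled list has a single summit. The smallest gap between neighbouring summits is 199 bp in every list, so these gaps stand at the shortest spacing the lists hold.

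Inside opa the summits were weak. The promoter summit, 254 bp upstream, had a pooled signal of 52.7 at rank 11219 and was found in both replicates, with 31.9 at rank 7904 and 24.1 at rank 18958. Of the 10 pooled summits 5 lay in introns, with signals from 25.3 to 63.9. Introns held 6 of 11 summits in replicate 2 but 1 of 11 in replicate 1. The strongest intron summit of replicate 2, with 62.0 at rank 4902, had no summit of replicate 1 within 100 bp.

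The zinc finger gene odd and the Pax gene prd, which encodes a protein with a paired domain and a homeodomain, had no optimal summit. The gene odd spans 3604224 to 3606756 on 2L (FBgn0002985). Its window held 8 pooled summits, 7 of replicate 1 and 11 of replicate 2, and the strongest, 5530 bp past the gene's end, had a signal of 90.8 at rank 5614, with 28.5 at rank 9245 in replicate 1 and 65.3 at rank 4528 in replicate 2. Only replicate 2 had a summit at the promoter of odd, 27 bp upstream, with 20.6 at rank 23009.

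The gene prd (FBgn0003145) spans 12082995 to 12085827 on 2L. Its strongest summit, at the tandem repeat printed for it, lay at 12081181, 1814 bp past the gene's end and within lncRNA:CR44590. It had a pooled signal of 117 at rank 4151, just outside the optimal list, with 61.5 at rank 3655 in replicate 1 and 59.4 at rank 5212 in replicate 2. Unlike the optimal summits of hry, opa and slp1, it ranked higher in replicate 1. Of its 6 pooled summits 4 lay nearest to the TSS of the neighbour CG14947, and 1 of these, with 50.7 at rank 11797, lay 81 bp inside that gene.

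Promoter summits of the family differed between the replicates, and 9 genes are too few to set these counts apart from the shares of all genes. In the optimal list only hry had one, beside 12.2% of all protein-coding genes. The pooled list gave 4 genes, hry, ftz, run and opa (36.3% of all genes). Replicate 1 gave 3, ftz, hry and opa (41.2%), and replicate 2 gave 5, hry, run, odd, opa and slp2 (33.8%). The promoters of hry and opa were in both replicate lists, and those of eve, prd and slp1 in neither.

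**Figure D3:**
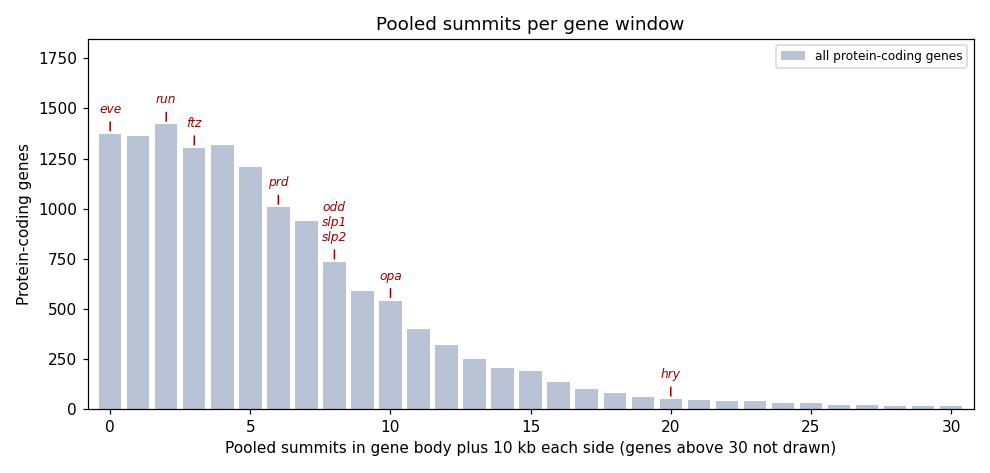
Number of protein-coding genes by pooled summits in gene body plus 10 kb, with the pair-rule genes named above their bar and the far right end of the distribution not drawn. The median gene has 5 summits; eve with 0, run with 2 and ftz with 3 lie below it, prd with 6, odd, slp1 and slp2 with 8 and opa with 10 above it, and hry has 20.

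Set against all genes, the count in the window was ordinary for most of the family. The median protein-coding gene had 5 pooled summits in its window, with quartiles of 2 and 8. The genes prd, odd, slp1 and slp2 lay between the median and the upper quartile or at it, opa with 10 lay above it in a window longer than the others, and eve had 0. Only hry, with 20, lay far above the quartiles.

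As among all peaks of these lists, the optimal summits of the family were mostly found in both replicates and the pooled summits less often. Of the 6 optimal summits 5 had a summit of both replicates within 100 bp, beside 89.7% of all 3921, and the sixth, downstream of slp1, had both within 250 bp. That list draws on the replicate lists, so its summits were chosen in part for being in both. Of the 59 pooled summits, which include the 6 optimal ones, 18 had both, beside 31.4% of all pooled summits. A further 10 had a summit of replicate 1 only, 22 of replicate 2 only and 9 of neither. The shares of these cases among all pooled summits were not computed, so the larger count for replicate 2 cannot be called particular to the family. The pooled summits of hry had both in 10 of 20 cases, and those of ftz in 0 of 3.

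**Figure D4:**
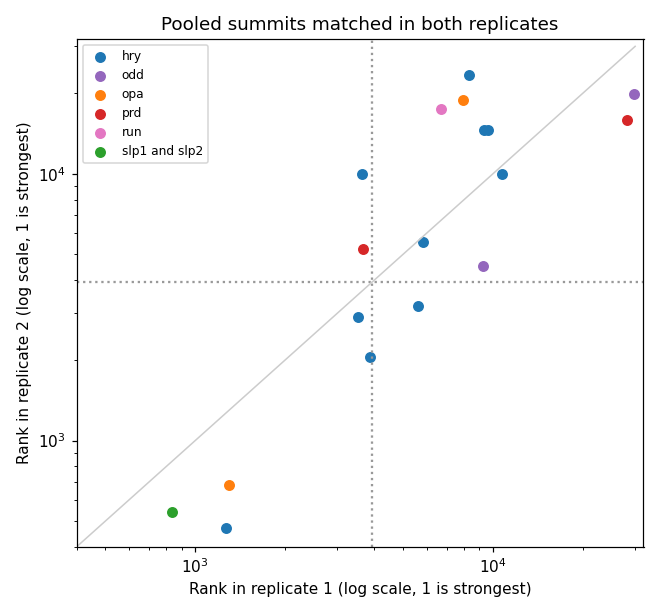
Ranks in replicate 1 and replicate 2, on log axes with rank 1 strongest, of the 18 pooled summits of the family with a summit of both replicates within 100 bp, coloured by gene. Dotted lines mark rank 3921, the size of the optimal list. The strongest summits of slp1 and slp2, opa and hry stand together at the lower left, below the diagonal.

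Genes that work with the pair-rule factors were examined in the same way, as 35 network genes in 4 classes. Of these, 21 had an optimal summit in the window, beside the 53.1% of all genes given above, and 6 had one within 500 bp of a TSS, beside 12.2%. Targets of the pair-rule factors had an optimal summit in 9 of 10 windows, cofactors and partners in 4 of 5, upstream regulators in 4 of 10 and relatives of the pair-rule genes in 4 of 10. Several windows overlap or hold other genes, so these counts are not independent. Some network genes are long, such as Ten-m (114820 bp), ftz-f1 (50703 bp) and inv (35231 bp), and window length was not matched.

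The cofactors ftz-f1 and gro had summits in their own promoters. The gene ftz-f1, which encodes the nuclear receptor partner of Ftz, held 9 optimal summits, the strongest with a signal of 2404 at rank 86 (rank 83 in replicate 1, 91 in replicate 2) and 4238 bp upstream of the nearest ftz-f1 TSS. The promoter summit of ftz-f1 was weaker, with 153 at rank 3009. The gene gro, which encodes the corepressor Groucho, held 7, the strongest with 450 at rank 756, in its promoter. The Runt partner genes Bro and Bgb shared 1, with 472 at rank 710, but it lay 134 bp upstream of the neighbour alphaCOP and had no counterpart in replicate 2.

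Among the targets, Tollo and Ten-m, cell surface receptor genes, had promoter summits of 202 at rank 2133 and 216 at rank 1971. The strongest summit of Tollo, 1314 bp upstream, had a signal of 2123 at rank 102, and ranked 99 and 107 in the replicates. The strongest near Blimp-1, a zinc finger repressor gene, had 2306 at rank 93 but lay nearest to the TSS of lin-28. The windows of en and inv, the homeodomain genes whose stripes the pair-rule factors set, shared a summit of 482 at rank 687, 8297 bp downstream of the nearest en TSS; en and inv were named here after their values were seen. The strongest near Ten-m had 772 at rank 370.

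Of the upstream regulators, Stat92E, the transcription factor of JAK-STAT signalling, had a promoter summit of 212 at rank 2019 and a strongest summit of 294 at rank 1352. The strongest summit near D, the Sox gene Dichaete, had 267 at rank 1493, 4525 bp upstream, and that near bcd, the anterior morphogen gene, 262 at rank 1537, nearest to Ama. Of the relatives, lz, another Runx gene, had a summit of 2978 at rank 65, 6821 bp downstream of its start and with ranks of 67 and 66 in the replicates. The Pax gene Poxm had one of 380 at rank 958 in its promoter. The gene sob, the odd paralog, had 4, the strongest with 468 at rank 727 and nearest to the TSS of CG43815.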

How the data were processed

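ChIP-seq against GFP was done by the authors on 2 biological replicates, with chromatin sonicated to 200 to 800 bp per the labels. The deposited narrowPeak tables on dm6 hold the authors' signal per peak, of unstated scaling, and, as a deposited offset in bp, the summit. Per the file headers, each replicate was called against a control, a pooled call used both, and an optimal set came from these by comparing replicates (IDR). Aligner, peak caller and cut-offs: not given in the sources used here.

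Genes and TSSs came from Ensembl release 115, sequence from RefSeq Release 6, the same assembly as dm6. Python 3.11.15, NumPy 2.4.6, pandas 2.3.3 and Matplotlib 3.10.9 were used. Summits were counted in gene body plus 10 kb, classed as promoter (within 500 bp of a TSS of the gene), exon, intron or flank, and ranked by signal. A summit was matched to a replicate within 100 bp. Counting was tested on simulated summits. Members, lists and motifs were chosen with earlier results of these data known. Named genes were all members, network genes with an optimal promoter summit, and up to 3 of each class by signal with one in the window. Network genes were ftz-f1, gro, CtBP, Bro and Bgb (cofactors and partners); zld, cad, D, Stat92E, bcd, hb, Kr, kni, gt and tll (upstream regulators); sob, drm, gsb, gsb-n, Poxm, lz, RunxA, RunxB, dpn and lmd (relatives); en, inv, wg, hh, mid, Blimp-1, 18w, Toll-6, Tollo and Ten-m (targets). No statistical test was made.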

Additional observations from a re-analysis of the deposited data

How the results depend on the processing

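With the 3921 strongest peaks of either single replicate, the genes with a summit in the window ranged from 4 to 5 of 9 (prd was added without replicate 2), the summits from 7 to 8, their density from 3.34 to 3.82 per 100 kb, those in flanks from 6 to 7, promoter genes stayed at 1, and network genes ranged from 20 to 21 by window and from 7 to 8 by promoter. The stronger upper part of the optimal list (1960 peaks) gave 3 summits, 3 of them in flanks, a density of 1.43, 0 promoter genes and 2 network promoter genes. The 7842 strongest pooled peaks gave 11 summits, 10 in flanks, a density of 5.25 and 10 network promoter genes. Such counts rise and fall with the length of the list. The share of all genes and the density of the arms were not computed at either length. The values at these lengths were therefore not set against a background, and neither a change nor the lack of one can be read from them. A flank of 5 kb gave 3 flank summits, and one of 20 kb gave 8 of 9 genes with a summit, 14 summits and 13 in flanks, with run still at 0, while the share of all protein-coding genes was 70.8% in place of 53.1% (38.3% at 5 kb, both chosen after seeing the data). A promoter of 250 bp gave 3 network promoter genes. Without the window of hry, chosen after seeing the data, the density was 1.61. Of 53 alternative values 38 stayed within 1.5 times the reported one, and with only genes no longer than opa 51.4% of genes had an optimal summit in the window. No paired analysis was possible because there is 1 group. Depth is unknown, so a summit missing from a list may be undetected.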
